A study of Mus musculus with 6 samples.

Results

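Red cells are present in the vessels of every embryonic organ, so RNA of the developing gut also carries globin RNA. In the distal midgut of E13.5 embryos, 8 genes of the red cell lineage were examined. These are the embryonic globins *Hba-x*, *Hbb-y* and *Hbb-bh1*, the adult type globins *Hba-a1* and *Hbb-b1*, the heme synthesis gene *Alas2*, the red cell membrane gene *Slc4a1* and the erythroid transcription factor gene *Klf1*. Every probe that the annotation of the array platform names with one of these symbols and no other was taken. This gave 7 probes for 7 of the 8 genes, out of 33012 probes and 13840 named genes on the array. *Hbb-b1*, the adult beta-major globin gene, is the gene for which no probe with that symbol alone was found.

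The samples were 3 wild-type (*Id2*+/+) and 3 *Id2* knockout (*Id2*-/-) samples of the distal midgut at E13.5, with 1 single-color array per sample, numbered 1, 2 and 3 in each genotype. *Id2* encodes a helix-loop-helix protein that binds other transcription factors but not DNA, and the study asked what it does for the identity of the intestine. The source embryos are called littermates, the labels name no allele confined to a tissue, and the methods name an inbred and a mixed genetic background without saying which of them the arrays used. *Id2* itself was not analysed here, and the genotypes are those of the labels. The p-values below are about the spread of these samples, which may be technical in part. An exception is 1 fit, marked below, that gave the tested genes the same standard error. Whether each sample came from 1 embryo is not stated. Nor do the sources say whether blood was rinsed from the tissue.

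Hemoglobin of the mouse embryo is made in successive waves of red cells. Primitive red cells arise in the yolk sac and carry zeta, epsilon-y and beta-h1 globin, encoded by *Hba-x*, *Hbb-y* and *Hbb-bh1*. Definitive red cells leave the fetal liver later, enter the same circulation and carry mainly adult alpha and beta globin. The alpha-type genes lie together on chromosome 11 and the beta-type genes on chromosome 7. In bulk tissue, fewer red cells and less globin RNA per red cell cannot be told apart.

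The authors divided the signal of each spot by the median of its array, and levels below are log2 of that value. A probe was taken as above background on an array when the signal-to-noise score of the scanner software was at least 3. A probe entered the test when none of its 6 spots was flagged and all 3 arrays of either genotype, or all 6 arrays, read it above background. This left 12741 probes, and adjusted p-values are over all of them. Differences are *Id2*-/- minus *Id2*+/+. Levels of separate probes are not set against each other, since probes differ in how strongly they bind their target. Markers of the labelled tissue were present, with 14 of 17 gut epithelium genes tested, *Epcam*, *Cdh1* and *Cdx2* among them, and 12 of 16 gut mesenchyme genes. The arrays numbered 1 stood apart in both genotypes, with 15830 and 16539 probes above background against 13890 to 14560 on the other 4 arrays. Over all tested probes, the median of the *Id2*-/- minus *Id2*+/+ differences was 0.35 between the arrays numbered 1, -0.04 between those numbered 2 and -0.19 between those numbered 3.

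Of the 7 probes, 5 were above background on all 6 arrays, namely those of the 3 embryonic globins, *Hba-a1* and *Alas2*. The globin probes stood far above it, with signal-to-noise scores from 41.9 to 144. *Slc4a1* encodes band 3, the anion exchanger of the red cell membrane, and its scores lay between -0.49 and 1.87. *Klf1* encodes a zinc finger factor of the erythroid lineage, and its scores lay between -0.75 and 1.01. Both were below background on all 6 arrays and were not tested, so no difference between the genotypes can be read from them.

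The windows of 250 bases before the transcription start are shown for the globins that the comparison turns on, the embryonic *Hba-x* and *Hbb-y* and the adult type *Hba-a1*. RefSeq sequences on the build GRCm38.p6 were available for 5 of the 8 genes, including *Alas2* and *Klf1*, and each is written 5′ to 3′ along the gene, ending at the base before the start. Capitals mark matches to CACCC, the motif that KLF1 is known to bind in globin promoters, to CCAAT, and to ATAAA, letters of the TATA type box. AGATAA, which erythroid GATA factors are known to bind, was also searched, and all motifs were searched on both strands. CACCC was found in 52.0%, CCAAT in 33.8%, AGATAA in 9.99% and ATAAA in 37.3% of the windows of the same length before 32851 starts.
Hba-x (embryonic alpha-type, chr11:32276350-32276599, plus strand): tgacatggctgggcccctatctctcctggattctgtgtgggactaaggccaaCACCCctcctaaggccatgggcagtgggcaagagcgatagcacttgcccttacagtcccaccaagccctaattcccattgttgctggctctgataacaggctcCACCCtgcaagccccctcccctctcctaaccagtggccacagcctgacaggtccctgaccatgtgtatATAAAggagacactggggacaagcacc
Hba-a1 (adult alpha-type, chr11:32283422-32283671, plus strand): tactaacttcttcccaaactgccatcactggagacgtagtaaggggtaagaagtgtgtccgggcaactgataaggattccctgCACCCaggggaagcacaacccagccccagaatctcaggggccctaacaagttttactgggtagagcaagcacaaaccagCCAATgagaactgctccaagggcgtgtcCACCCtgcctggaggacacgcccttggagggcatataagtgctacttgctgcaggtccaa
Hbb-y (embryonic beta-type, chr7:103853208-103853457, minus strand): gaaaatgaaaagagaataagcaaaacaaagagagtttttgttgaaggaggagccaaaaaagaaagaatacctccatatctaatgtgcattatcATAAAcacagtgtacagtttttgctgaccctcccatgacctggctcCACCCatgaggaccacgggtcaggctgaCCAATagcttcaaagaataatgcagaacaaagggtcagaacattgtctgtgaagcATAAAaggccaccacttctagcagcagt
The window of *Hba-x* holds CACCC at 198 to 194 and at 95 to 91 bases before the start and ATAAA at 27 to 23. That of *Hba-a1* holds CACCC at 167 to 163 and at 60 to 56 and CCAAT at 88 to 84. It has no ATAAA but does hold the letters tataa, which were not searched. That of *Hbb-y* holds CACCC at 111 to 107, CCAAT at 83 to 79, and ATAAA at 157 to 153 and at 28 to 24. AGATAA was in the window of *Alas2* and in none of the other 4. These are exact matches of letters, so a GATA site or a TATA type box in other letters would be missed. Binding was not measured.

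The 3 embryonic globins had higher mean levels in *Id2*-/- than in *Id2*+/+ samples, by 1.65- to 1.84-fold, while the adult type *Hba-a1* had nearly equal means. In limma, 0 of the 5 tested genes passed an adjusted p of 0.05, as did 0 of all 12741 probes (0.0%). At an unadjusted p under 0.05, limma gave 1 of the 5 genes, *Hba-x*, and 234 of all probes (1.84%), of which 114 (0.895%) were higher in *Id2*-/-. The methods' t-test on the same values also gave 0 probes after Benjamini-Hochberg adjustment. Unadjusted, it gave 242 of all probes and 0 of the 5 genes, with 0.091 for *Hba-x*.

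**Figure D1:**
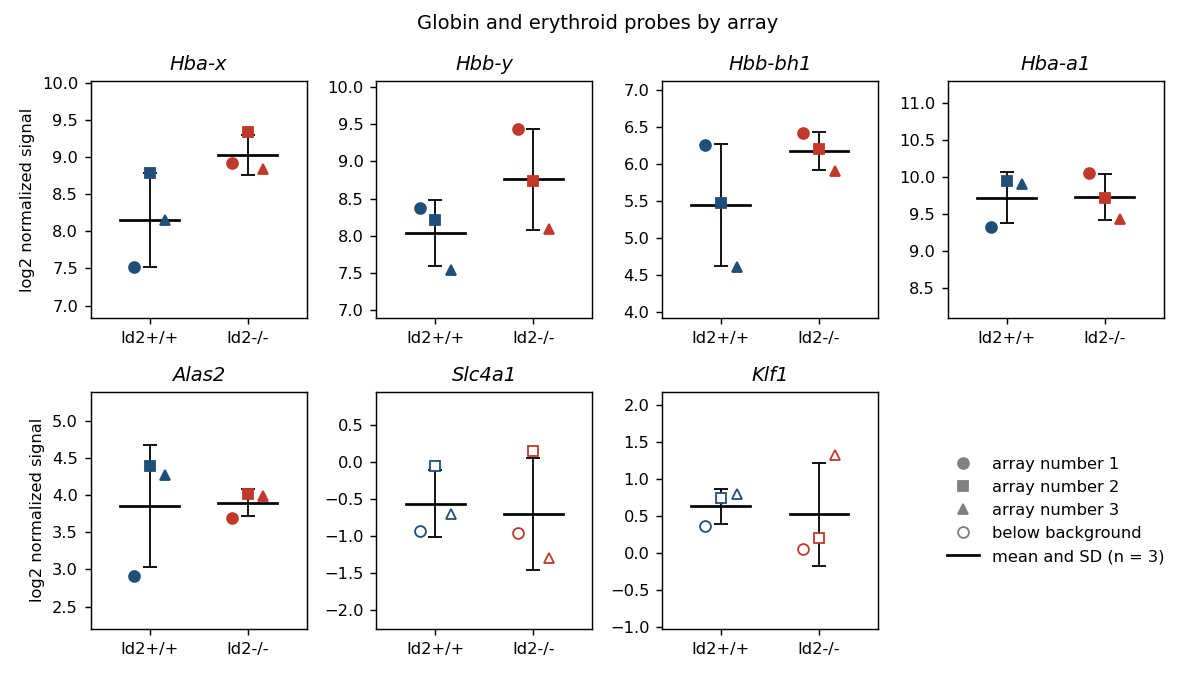
Level of each probe (log2 of the median-normalized signal) on the 3 *Id2*+/+ and 3 *Id2*-/- arrays. Symbols give the array number, open symbols are below background, and bars are the mean and SD (n = 3). Among the 5 tested genes, *Hba-x* is the one whose genotypes do not overlap.

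*Hba-x* encodes zeta globin, an embryonic alpha-type chain of primitive red cells. Its levels were 7.52, 8.79 and 8.15 on the *Id2*+/+ arrays numbered 1, 2 and 3, and 8.92, 9.34 and 8.84 on the *Id2*-/- arrays. Every *Id2*-/- array lay above every *Id2*+/+ array, although the lowest *Id2*-/- and the highest *Id2*+/+ value were close. The means were 8.15 ± 0.63 and 9.03 ± 0.27 (SD, n = 3 each). The difference was 0.88 (1.84-fold, standard error 0.36, 95% interval 0.03 to 1.73), with an unadjusted p of 0.045 and an adjusted p of 1.0 in limma. An exact two-sided permutation test gave p = 0.1, the smallest that 3 against 3 arrays allow. The difference was 0.56 without the *Id2*+/+ array numbered 1, on which *Hba-x* was lowest, and 1.20 without the *Id2*+/+ array numbered 2.

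*Hbb-y* encodes epsilon-y globin, a beta-type chain of the same cells. Its levels were 8.37, 8.21 and 7.53 on the *Id2*+/+ arrays and 9.44, 8.74 and 8.09 on the *Id2*-/- arrays. In both genotypes the array numbered 1 was highest and the array numbered 3 lowest, and the genotypes overlapped through the *Id2*-/- array numbered 3. The means were 8.04 ± 0.45 and 8.76 ± 0.67 (SD, n = 3 each), a difference of 0.72 (1.65-fold, standard error 0.41, 95% interval -0.23 to 1.68) with an unadjusted p of 0.118 and an adjusted p of 1.0 in limma. The difference was 0.38 without the *Id2*-/- array numbered 1 and 0.47 without the *Id2*+/+ array numbered 3.

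*Hbb-bh1* encodes beta-h1 globin, the other embryonic beta-type chain measured. Its levels were 6.26, 5.48 and 4.61 on the *Id2*+/+ arrays and 6.42, 6.20 and 5.91 on the *Id2*-/- arrays. Its levels followed the same order of array numbers as *Hbb-y*, with a wider spread in *Id2*+/+ samples, and the highest *Id2*+/+ array lay within the *Id2*-/- range. The means were 5.45 ± 0.82 and 6.18 ± 0.26 (SD, n = 3 each), a difference of 0.72 (1.65-fold, standard error 0.43, 95% interval -0.28 to 1.73) with an unadjusted p of 0.132 and an adjusted p of 1.0 in limma. The *Id2*+/+ array numbered 3 carried much of it, since the difference was 0.30 without that array. Without the *Id2*+/+ array numbered 1 it was 1.13.

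*Hba-a1* encodes adult alpha globin, and because *Hba-a2* is a nearly identical copy, its probe may read RNA of both. Which wave of red cells this RNA came from was not measured, so *Hba-a1* does not stand for definitive red cells alone. Its levels were 9.32, 9.94 and 9.90 on the *Id2*+/+ arrays and 10.05, 9.72 and 9.43 on the *Id2*-/- arrays. The array numbered 1 was lowest in *Id2*+/+ and highest in *Id2*-/-, and the genotypes overlapped over most of their range. The means were 9.72 ± 0.35 and 9.74 ± 0.31 (SD, n = 3 each), a difference of 0.02 (standard error 0.29, 95% interval -0.67 to 0.70; adjusted p = 1.0 in limma). The interval spans changes in either direction and does not show that the level was equal. Without both arrays numbered 1 the difference was -0.34, and at a scaling to the 75th percentile it was -0.03. The scanner signal of this probe reached 1070593, below the highest signals of the arrays, which were 2710902 to 3513876.

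*Alas2* encodes the erythroid form of aminolevulinate synthase, the first enzyme of heme synthesis, and is the tested gene of the 8 that is no globin. Its levels were 2.91, 4.40 and 4.27 on the *Id2*+/+ arrays and 3.69, 4.02 and 3.99 on the *Id2*-/- arrays. The array numbered 1 was lowest in both genotypes, and the *Id2*-/- arrays lay within the *Id2*+/+ range. The means were 3.86 ± 0.82 and 3.90 ± 0.19 (SD, n = 3 each), a difference of 0.04 (standard error 0.42, 95% interval -0.95 to 1.03; adjusted p = 1.0 in limma). It was -0.43 without the *Id2*+/+ array numbered 1 and -0.33 without both arrays numbered 1.

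Within same-numbered arrays the embryonic globins were higher in *Id2*-/- in each pair, whereas *Hba-a1* and *Alas2* changed sign between pairs. The labels do not say that same-numbered arrays belong together, so the pairing is an assumption. The pair differences were 1.40, 0.55 and 0.69 for *Hba-x*, 1.07, 0.53 and 0.57 for *Hbb-y*, and 0.17, 0.71 and 1.29 for *Hbb-bh1*. All 3 of these 3 genes were thus higher in all 3 pairs, against 1503 of the 12741 tested probes (11.8%), while 719 (5.64%) and 0 of the 5 genes were lower in all 3 pairs. The genes are carried by the same red cells and samples, so the 3 genes are not independent counts of one difference. The pair differences of *Hba-a1* were 0.73, -0.22 and -0.46, and those of *Alas2* were 0.78, -0.37 and -0.28. Relative to the median of all tested probes in the same pair, *Hba-x* was higher by 1.05, 0.58 and 0.88 and *Hbb-y* by 0.72, 0.57 and 0.76. On that scale *Hbb-bh1* stood at -0.18, 0.75 and 1.49, so its first pair no longer lay on the higher side, and *Hba-a1* stood at 0.38, -0.18 and -0.27.

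**Figure D2:**
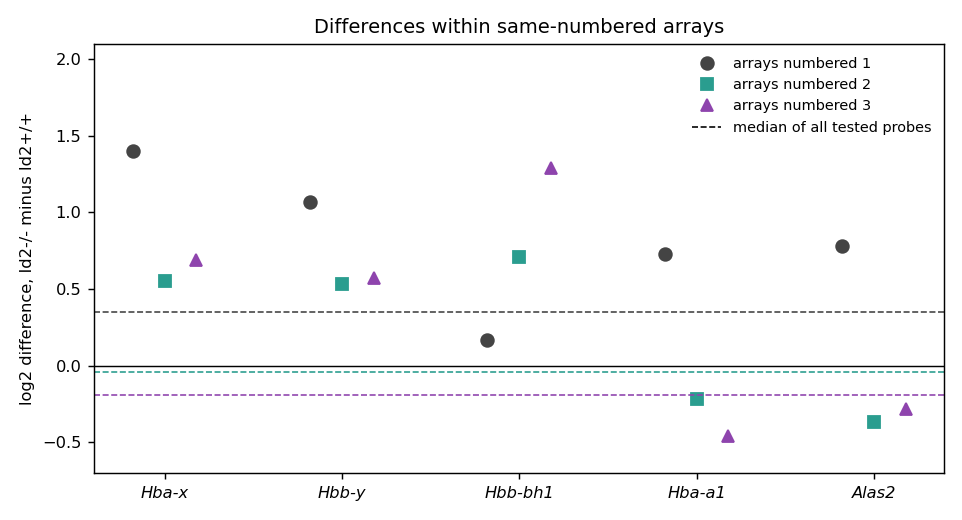
Difference of each tested gene (log2, *Id2*-/- minus *Id2*+/+) within the pairs of arrays numbered 1, 2 and 3, with dashed lines in the same colors at the median of all tested probes of the pair (0.35, -0.04 and -0.19). The 9 points of the embryonic globins lie above 0, while *Hba-a1* and *Alas2* lie above 0 in the arrays numbered 1 and below in the others.

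With the array number as a replicate block in limma, 0 of the 5 genes passed the adjusted test, against 278 of all probes (2.18%), a count that fell to 0 once quantile normalization was added. The adjusted p was 0.0595 for *Hba-x* and 0.224 for both *Hbb-y* and *Hbb-bh1*. These 3 genes had an unadjusted p under 0.05 in the blocked fit, as did 879 of all probes (6.9%), and for a higher level in *Id2*-/- 468 (3.67%). With the block and quantile normalization the adjusted p was 0.363, 0.34 and 0.751. In the blocked fit without quantile normalization the standard error was 0.27 for each of the 5 genes. Its p-values thus follow the size of a difference and not the spread of the single gene. *Hbb-y* and *Hbb-bh1* had the same adjusted p there, although their pair differences were spread unlike. Of the 5 tested genes, *Hba-x* was also the one whose genotypes did not overlap, as in 348 of all probes (2.73%) with every *Id2*-/- array above every *Id2*+/+ array. In the opposite direction the genotypes were apart in 0 of the 5 genes and in 164 of all probes (1.29%). A difference at least as large as that of *Hbb-y* toward higher levels was seen in 245 of all probes (1.92%).

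The embryonic globins were then set against the adult type globin on each array. Each gene was centred on its own mean over the 6 arrays, the 3 embryonic genes were averaged, and *Hba-a1* was subtracted, so a scaling constant of an array cancels out. This value was 0.19, -0.32 and -1.01 on the *Id2*+/+ arrays and 0.34, 0.49 and 0.30 on the *Id2*-/- arrays. The *Id2*-/- arrays lay close together and above all 3 *Id2*+/+ arrays, and the *Id2*+/+ arrays were spread over 1.20. The mean was -0.38 ± 0.60 in *Id2*+/+ and 0.38 ± 0.10 in *Id2*-/- (SD, n = 3 each), a difference of 0.76, or 1.69-fold, and it is given without a test because the genes were chosen with results of these data known. The *Id2*+/+ array numbered 3 weighed most, since the difference was 0.44 without it. In the pairs of arrays numbered 1, 2 and 3 the difference was 0.15, 0.81 and 1.31, and without both arrays numbered 1 it was 1.06.

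**Figure D3:**
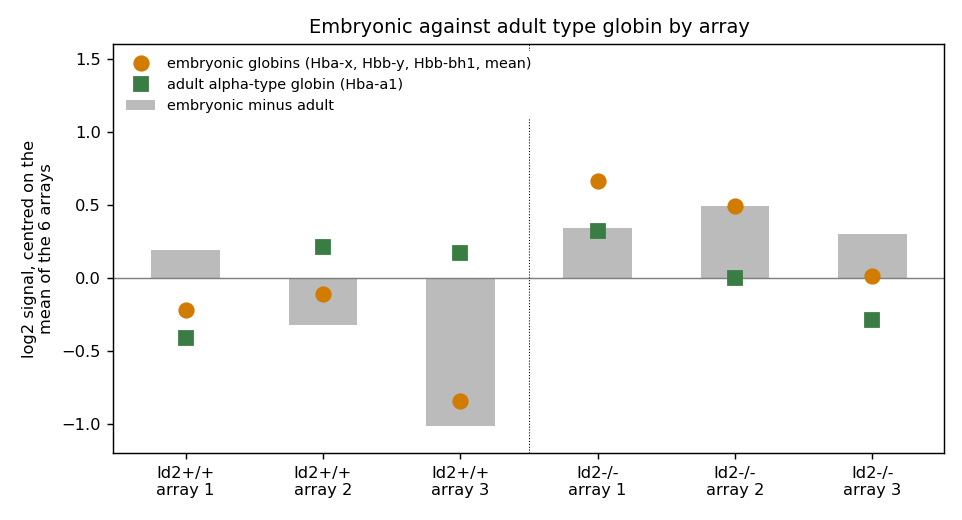
Centred log2 level of the embryonic globins (mean of *Hba-x*, *Hbb-y* and *Hbb-bh1*) and of the adult type *Hba-a1* on each array, with bars for the embryonic minus the adult value. The bars of the *Id2*-/- arrays are at 0.34, 0.49 and 0.30, and those of the *Id2*+/+ arrays at 0.19, -0.32 and -1.01.

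The parts of that value differed between the genotypes in unlike ways. The embryonic mean alone was -0.22, -0.11 and -0.84 on the *Id2*+/+ arrays and 0.66, 0.49 and 0.01 on the *Id2*-/- arrays, with no overlap and a difference of 0.77. The adult type *Hba-a1*, which is subtracted, differed by 0.02. Among the alpha-type genes, *Hba-x* minus *Hba-a1* was -0.66, -0.01 and -0.62 in *Id2*+/+ and 0.01, 0.75 and 0.54 in *Id2*-/-, a difference of 0.86. Here the highest *Id2*+/+ array, at -0.01, and the lowest *Id2*-/- array, at 0.01, were nearly equal. Between the embryonic beta-type genes, *Hbb-bh1* minus *Hbb-y* differed by 0.00 between the genotypes, but it was 0.47, -0.14 and -0.33 in *Id2*+/+ and -0.43, 0.04 and 0.40 in *Id2*-/-, so the pair of genes did not keep a fixed relation from array to array.

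Adult beta globin was read through 1 probe that the annotation gives 2 adult beta-type globin symbols, so it names no single gene, and it was added after its values were seen. Its levels were 9.46, 9.09 and 9.50 on the *Id2*+/+ arrays and 9.42, 9.08 and 8.95 on the *Id2*-/- arrays. The genotypes overlapped, and the difference was -0.20 (standard error 0.26, 95% interval -0.80 to 0.41; adjusted p = 1.0 in limma). The array numbered 3 carried it, with pair differences of -0.04, 0.00 and -0.55. With this probe on the adult side the embryonic minus adult value differed by 0.86 between the genotypes, without overlap. Within the beta-type genes, the mean of *Hbb-y* and *Hbb-bh1* minus this probe was 0.00, -0.09 and -1.29 in *Id2*+/+ and 0.65, 0.53 and 0.19 in *Id2*-/-, a difference of 0.92.

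Among 9 other globin and globin chaperone genes, *Hbq1a*, a theta-type globin gene of the alpha cluster, was the one with a named probe. The brighter of its 2 probes read 3.66, 4.74 and 4.88 on the *Id2*+/+ arrays and 4.84, 4.71 and 4.96 on the *Id2*-/- arrays. Apart from the low *Id2*+/+ array numbered 1, the levels were alike, and the difference was 0.41 (standard error 0.36; adjusted p = 1.0 in limma). The dimmer probe passed background on 1 of the *Id2*+/+ and 2 of the *Id2*-/- arrays, too few for a test. The nearest tested genes on either side of the alpha-type cluster had smaller differences than *Hba-x*. They were 0.15 for *Nprl3*, whose introns hold enhancers of the alpha globin genes, 0.16 for *Mpg* and 0.00 for *Rhbdf1* on one side, and 0.02 for *Sh3pxd2b*, 0.13 for *Ubtd2* and 0.09 for *Fbxw11* on the other (adjusted p = 1.0 each in limma).

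Lists of other genes that red cells use had median differences from -0.11 to 0.15, against 0.04 for all 12741 probes. In each of these lists 0 genes passed the adjusted test in limma, with or without the replicate block, and 0 had an unadjusted p under 0.05. For heme synthesis 9 of 13 genes were tested, with a median of 0.02 and a range of -0.26 to 0.26. *Urod*, which decarboxylates uroporphyrinogen, stood at 0.26, and *Fech*, which inserts iron into the heme ring, at -0.26. For iron uptake and handling 4 of 13 were tested, with a median of 0.01, from -0.26 for the iron exporter *Slc40a1* to 0.40 for the heme oxygenase *Hmox1*. For the red cell membrane and its skeleton 4 of 20 were tested, with a median of -0.11. The values were -0.36 for *Dmtn*, an actin-binding protein of that skeleton, and -0.27 for *Cd47*, a surface protein that many other cells carry too.

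Of 18 erythroid transcription factor genes 7 were tested, with a median of -0.04. *Tal1* and *Lmo2*, partners in a DNA-binding complex of blood and endothelial cells, stood at 0.44 and 0.40, and the value of *Tal1* rests partly on a signal below background, since it was above it on 2 of the 3 *Id2*+/+ arrays. *Gata1*, *Nfe2*, *Gfi1b* and *Myb* did not meet the criteria for testing. Of 19 genes for red cell enzymes and maturation 12 were tested, with a median of 0.06. The carbonic anhydrase gene *Car2* stood at 0.29, and *Ube2l6*, which encodes a ubiquitin-conjugating enzyme, at 0.33. Of 12 genes of erythropoietin signalling 7 were tested, with a median of 0.15. *Stat5b*, a transcription factor of the pathway, stood at 0.44, and *Erfe*, the erythroblast hormone erythroferrone, at -0.80, a value that rests partly on signals below background, since *Erfe* was above it on 1 of the 3 *Id2*-/- arrays. Most of the genes tested in these lists are also used by cells other than red cells.

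**Figure D4:**
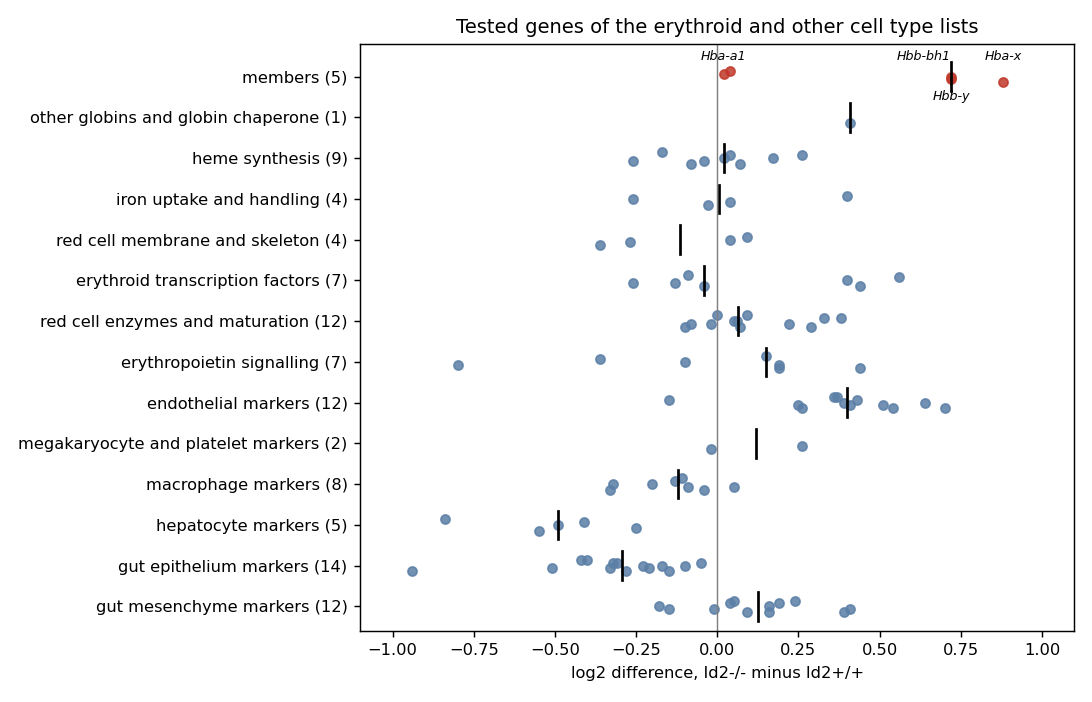
Difference (log2, *Id2*-/- minus *Id2*+/+) of each tested gene of the 8 red cell genes (top, red) and of 13 gene lists (blue, number tested in brackets), with black lines at the medians. The 3 embryonic globins lie at 0.72 to 0.88, *Hba-a1* and *Alas2* near 0, and the medians of the heme, iron, membrane, factor and enzyme lists between -0.11 and 0.06. The median of erythropoietin signalling is 0.15, and the other globin tested, *Hbq1a*, lies at 0.41.

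Markers of the cell types that surround or carry red cells were measured in the same samples. Of 20 endothelial genes 12 were tested, with a median difference of 0.40 and with pair medians of 1.07, 0.25 and -0.10. Their summed normalized signal was 99.7 to 164 on the *Id2*+/+ arrays and 150 to 206 on the *Id2*-/- arrays. Sums of this kind, here and below, follow the brightest probes of a list more than its other genes. *Plvap*, a protein of fenestrated endothelium, differed by 0.51 without overlap, and *Robo4*, a receptor of endothelial cells, by 0.64. In 2 of the 12 genes every *Id2*-/- array was higher, *Plvap* and *Egfl7*, the latter named after its values were seen, against 348 of all 12741 probes (2.73%). Of the 4 endothelial genes taken as defining, *Pecam1*, *Kdr* and *Tek* were tested, at 0.7, 0.41 and 0.39, and *Cdh5* was not. Between the arrays numbered 1 these genes differed by 1.62, 1.27 and 1.43, and between those numbered 3 by 0.09, -0.21 and -0.77. Without both arrays numbered 1 the endothelial median was 0.10, and *Hba-x*, *Hbb-y* and *Hbb-bh1* differed by 0.62, 0.55 and 1.0. Without the *Id2*+/+ array numbered 3 the endothelial median was 0.56, and the same globins differed by 0.87, 0.47 and 0.30. Whether vessel content had a part in the globin differences was not tested.

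Hepatocyte genes mark the fetal liver, the site of definitive red cell formation, and 5 of 15 were tested, all with lower means in *Id2*-/- and with a median difference of -0.49. The pair medians were 0.09, -0.86 and -0.76, with that of the arrays numbered 1 on the other side of 0. Their summed normalized signal was 86.7 to 166 in *Id2*+/+ and 94.7 to 102 in *Id2*-/-. *Rbp4*, a retinol carrier, differed by -0.84 without overlap (unadjusted p = 0.0204, adjusted p = 1.0 in limma), and *Apoa1*, an apolipoprotein of liver and intestine, by -0.49. Every *Id2*-/- array was lower in 1 of these 5 genes, *Rbp4*, against 164 of all 12741 probes (1.29%). Of the defining genes *Afp* and *Ttr* were tested and *Alb* was not, and several of these genes are also known from gut endoderm and yolk sac. Among the untested genes with a named probe, *Alb* had the highest best signal-to-noise score, 3.96. The others were *Fgb* at 2.63, *Fgg* at 2.54, *Apoh* at 1.94, *Ahsg* at 1.31, *Apoa2* at 0.58 and *Fga* at 0.32, below background. Whether liver cells were present in the samples was not tested. Macrophage genes, 8 of 16 tested, had a median of -0.12 and summed to 88.5 to 119 in *Id2*+/+ and 87.6 to 103 in *Id2*-/-. *Aif1* differed by -0.32 (unadjusted p = 0.192 in limma) and *Fcgr3* by -0.33. Every *Id2*-/- array was lower in 1 of these 8 genes, *Aif1*, against the same 1.29% of all probes. Of the defining genes *Adgre1* and *C1qa* were tested while *Csf1r* had no named probe. Platelet genes, 2 of 14 tested, were *Pf4* at -0.02 and *Gp9* at 0.26, and they summed to 27.1 to 32.1 and to 27.5 to 37.5, with *Ppbp* not tested and *Itga2b* without a named probe. The part of these cells in the globin differences was not tested.

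The signal of the tissue markers was also not constant across arrays. Whether tissue content or the arrays themselves differed was not tested. Gut epithelium genes, 14 of 17 tested, had a median difference of -0.30 with pair medians of 0.45, -0.48 and -0.84, and summed to 540 to 1520 in *Id2*+/+ and 767 to 884 in *Id2*-/-. Their median was 0.02 without the *Id2*+/+ array numbered 3 and -0.61 without the *Id2*+/+ array numbered 1. *Krt19*, a keratin, stood at -0.42, and *Foxa3*, a forkhead factor of endoderm, at -0.94 (adjusted p = 1.0 in limma). The value of *Foxa3* rests partly on a signal below background, since it was above it on 2 of the 3 *Id2*-/- arrays. With the replicate block in limma *Foxa3* had an adjusted p of 0.0339, and with the block and quantile normalization 0.696. Its pair differences were 0.22, -1.66 and -1.38. Gut mesenchyme genes, 12 of 16 tested, had a median of 0.12 with pair medians of 0.36, -0.02 and -0.22, and summed to 3310 to 7460 in *Id2*+/+ and 4210 to 6850 in *Id2*-/-. That sum comes mostly from the bright probes of *Col3a1*, *Col1a2* and *Vim*. The mesenchyme median was -0.28 without the *Id2*+/+ array numbered 1. *Pdgfra*, a growth factor receptor, stood at 0.39 and *Hand1*, a transcription factor, at 0.41, and *Foxf1* was not tested. The part of these tissues in the globin values was not tested.

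Genes whose profile over the 6 arrays was most like that of the embryonic globins were sought among 7317 other named genes, by the root mean square difference of the centred log2 values. The nearest were *2310030G06Rik* at 0.181, *Sh3tc2* at 0.182, *Irgm2* at 0.194, *Eogt* at 0.202 and *Lbp* at 0.220. None of these 5 is in the red cell lists. The genes nearest to the adult type *Hba-a1* were *Gabra5* at 0.035, *Cltc* at 0.0455, *2310022A10Rik* at 0.062, *Ebna1bp2* at 0.0637 and *Dscc1* at 0.0641. The embryonic and the adult profile differed from each other by 0.518 on the same measure. The likeness rests on 6 arrays that all genes share, and it says nothing of shared function.

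Across the ways of processing, the 3 embryonic globins stayed on the higher side in *Id2*-/- and *Hba-a1* and *Alas2* did not keep their sign. Over all settings run, the difference of *Hba-x* lay between 0.56 and 1.20, that of *Hbb-y* between 0.38 and 1.05, and that of *Hbb-bh1* between 0.30 and 1.13. That of *Hba-a1* lay between -0.34 and 0.17, and that of *Alas2* between -0.43 and 0.31.

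**Figure D5:**
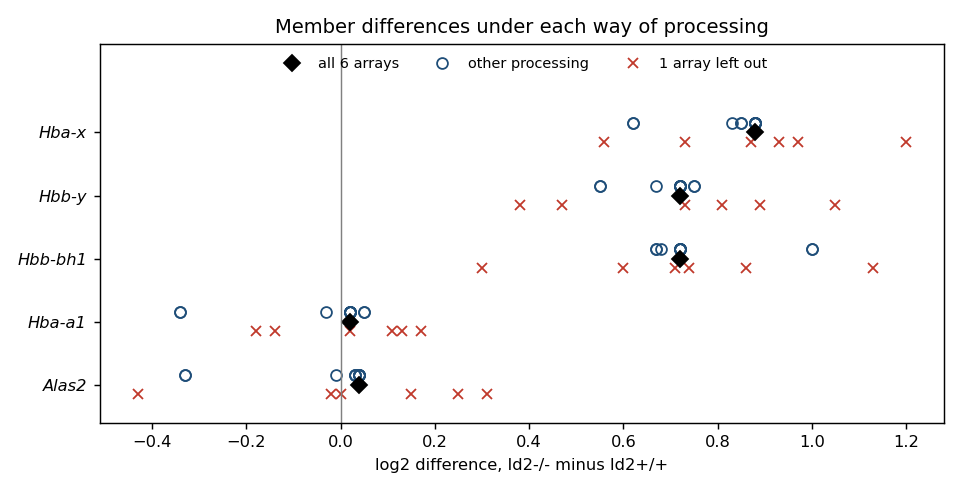
Difference of each tested gene (log2, *Id2*-/- minus *Id2*+/+) with all 6 arrays (black), under other ways of processing, including without both arrays numbered 1 (blue circles), and with 1 array left out (red crosses). The embryonic globins stay between 0.30 and 1.20, and *Hba-a1* and *Alas2* fall on both sides of 0.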

How the data were processed

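RNA of 6 samples was amplified for 1 round and hybridized to Applied Biosystems mouse genome survey arrays. The deposited files give, per probe, the intensity from the scanner software, its signal-to-noise score, a flag, and the normalized intensity, which the authors made by dividing by the median of the array. The normalized intensities in the deposited series table are the same. Whether background was subtracted is not given. The methods leave out flags under 5000, but here flags from 5000 upward were read as bad spots, which left 32189 probes.

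The log2 of the normalized intensity was fitted with limma 3.58.1 (lmFit and eBayes) in R 4.3.3, with Benjamini-Hochberg adjustment at 0.05 over 12741 probes. The number of arrays limits the precision. Arrays of the same number deviated together from the mean of their genotype (r = 0.838, 0.644 and 0.579 across probes). On this basis, and not on the labels, the number was used as a pairing, and a second fit had it as a replicate block. Correlations between arrays of unlike numbers are not given, so matching by number was not set against other matchings. Arrays numbered 1 that stand apart in both genotypes can raise the other correlations too. All probes of the 8 genes were reported, with the 2 genes of smallest p of each list and the 5 genes of nearest profile to the embryonic and to the adult type globins. A gene with several probes was represented by its brightest tested probe. Members and lists were chosen with earlier results of these data known. Names come from the platform annotation, updated through a RefSeq table, with 14411 probes having 1 symbol, 247 several and 18354 none. Intervals are at 95%. Alternatives were quantile normalization, scaling to the 75th percentile, other filters, an offset of 50% of the median, the series table, the block, a trended robust prior, leaving out arrays, the mean over probes, and the methods' t-test. Blocks by slide or scan were not fitted, for lack of such columns. Figures were drawn with matplotlib 3.10.9.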

Additional observations from a re-analysis of the deposited data

How the results depend on the processing

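The count of 0 called genes held under all settings run, with 5 of the 8 genes tested in each and 7 without the signal-to-noise filter. The smallest adjusted p of a tested member in limma was 0.0595 with the replicate block, 0.166 with the block but without both arrays numbered 1, 0.318 without both arrays numbered 1 and no block, and 0.34 with the block and quantile normalization. Over all probes the block gave 278 calls against 0 without it, and 0 with the block and quantile normalization or without both arrays numbered 1. The block without both arrays numbered 1, and the adult beta-type probe with 2 symbols, were added after the data were seen. The embryonic against adult difference of 0.76 lay between 0.44 and 1.06 and kept its sign. *Hba-x*, *Hbb-y* and *Hbb-bh1* kept theirs in all settings. Differences near 0 changed sign. That of *Hba-a1* was -0.03 at the 75th percentile scaling and -0.34 without both arrays numbered 1, with or without the block, and ran from -0.18 to 0.17 when single arrays were left out. That of *Alas2* was -0.01 and -0.33 in the same settings and ran from -0.43 to 0.31. The cause was not tested. Without both arrays numbered 1 the median of all probes was -0.11. The list medians of erythropoietin signalling (-0.11) and hepatocyte genes (-0.78) also moved there, and that of the iron genes moved to 0.24 without the signal-to-noise filter.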
